A study of Mus musculus with 13 samples.

Results

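A set of 10 genes of blood vessel endothelium were followed in the pancreas, namely Pecam1, Cdh5, Kdr, Flt1, Tek, Tie1, Vwf, Eng, Emcn and Plvap. They are among the 23366 genes in the expression table and were chosen by name as genes known for endothelial cells, then matched by their Entrez identifiers. The rule used no threshold on measured values, though earlier results of these data were known when the genes were chosen. All 10 were present and tested, since no filter on low values was applied.

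Endothelial cells line every blood vessel, and in the pancreas a dense network of fenestrated capillaries supplies both the islets and the acini. They respond to vascular endothelial growth factors through the receptors of Kdr and Flt1, to angiopoietins through the receptor of Tek and its partner Tie1, and to circulating ligands of the transforming growth factor family with the help of the co-receptor of Eng. Pecam1 and Cdh5 encode adhesion molecules of the junctions between endothelial cells, Emcn a sialomucin of the luminal surface, Plvap the protein of the diaphragms that span fenestrae, and Vwf the haemostatic protein stored in Weibel-Palade bodies.

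To learn how aging and a transient cycle of OSKM change the pancreas, total RNA depleted of ribosomal RNA was sequenced from 13 female mice, with one library per mouse. All of them, controls included, were i4F-B reprogrammable mice, whose Pparg gene holds an inserted cassette for the reprogramming factors Oct4, Sox2, Klf4 and c-Myc (OSKM), ubiquitous and switched on by doxycycline. The young group held 4 mice aged 13 weeks and the old group 5 mice aged 55 weeks, both without doxycycline. The old-OSKM group held 4 mice that drank doxycycline with sucrose for 7 days and then recovered for 2 weeks, and their labels give an age of 58 weeks. Doxycycline, sucrose and the additional weeks of age differ between old-OSKM and old mice together with the switching on of the cassette, and their parts cannot be told apart. The cassette is not active in all cell types of the tissue, and acinar cells are known to express it readily. Whether endothelial cells of these mice expressed it was not measured.

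The tissue was whole pancreas. The 8 acinar markers summed to between 6840 and 7400 RPKM in every mouse, the 10 endothelial genes to between 19.6 and 46.0 RPKM. The study's methods state one sequencing depth for all samples, but the read total of each library was not given, so the counting error of a value cannot be stated. Sample identifiers in the labels fell into a run of 609 to 621 and a run of 641 to 643, the latter holding young mice 3 and 4 and old mouse 5. Among well expressed genes one library stood apart. Old-OSKM mouse 4 had the highest value of the 13 mice in 24.0% of the 8410 genes with a mean log2 RPKM above 0, against 4.83% to 11.1% for each of the others. Over all 23366 genes, most of them low, young mouse 2 was highest in 18.1%, old-OSKM mouse 4 in 16.0%, old-OSKM mouse 3 in 10.2% and each other mouse in 8.5% or fewer. The differences of the 10 genes between old-OSKM and old mice are given with and without old-OSKM mouse 4, and those between old and young mice with and without young mouse 4, whose endothelial values were high too.

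The stretch before the transcription start was also examined for shared letters, and a link of these letters to the measured levels was not tested. RefSeq promoter sequences of build GRCm38.p6 were at hand for 6 of the genes, Eng, Emcn, Tek, Tie1, Kdr and Flt1. The motif searched was GGAAG, the core bound by ETS factors such as Erg and Fli1, which are abundant in endothelial cells. It was searched on both strands in the 250 bases before the start given with each promoter sequence. That start can lie inside the gene as RefSeq or GENCODE annotates it. Outside the gene in both lay 250 bases of the Eng window, 234 of Emcn, 47 of Tek, 38 of Tie1 and 0 of Kdr and Flt1. GGAAG was found in 5 of the 6 windows, and in 64.1% of the 32851 mouse promoter windows of the same length. The 2 stretches shown are those of which at least 200 bases lie outside the annotated gene, and they let a reader compare a window rich in G and C with a poorer one. Capitals mark GGAAG or its reverse complement CTTCC. The Eng stretch is chr2:32646345-32646594 and the Emcn stretch chr3:137340828-137341061, both on the plus strand and written 5′ to 3′.
Eng: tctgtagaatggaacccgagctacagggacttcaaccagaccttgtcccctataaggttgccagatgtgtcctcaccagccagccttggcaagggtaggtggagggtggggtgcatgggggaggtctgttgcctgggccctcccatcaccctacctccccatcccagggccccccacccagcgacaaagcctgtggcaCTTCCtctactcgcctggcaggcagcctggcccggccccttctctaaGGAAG
Emcn: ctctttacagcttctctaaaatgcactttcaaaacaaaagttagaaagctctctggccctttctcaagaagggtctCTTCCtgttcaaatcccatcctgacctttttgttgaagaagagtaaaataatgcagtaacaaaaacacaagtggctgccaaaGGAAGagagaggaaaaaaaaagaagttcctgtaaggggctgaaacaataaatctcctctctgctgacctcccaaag

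The Eng stretch held the motif at 52 to 48 and at 5 to 1 bases before the start given with its promoter sequence. The Emcn stretch held it at 174 to 170 and 92 to 88 bases before the start given with its own. The Emcn window ends at chr3:137341077, inside the annotated gene, while the printed stretch stops at chr3:137341061. The Emcn distances are therefore not counted from the last printed base. The window of Tie1 held 6 matches, that of Flt1 held 3, that of Kdr 1 and that of Tek 0. Windows with 2 or more matches made up 29.4% of all promoters, and 4 of the 6 genes had such a window. TATAAA was found only in the Flt1 window among the 6 (12.4% of all promoters), and GGGCGG in those of Kdr and Flt1 (32.7% of all). G and C made up 62.4% of the Eng window, 40.8% of the Emcn window and 70.4% of the Flt1 window, against a median of 52.4% over all promoters. Flt1 and Kdr had 23 and 16 CpG dinucleotides, Emcn 1. The 6 windows were thus of unlike base composition, and these matches describe letters only, not sites that are used.

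Compared per length, the 10 genes kept nearly one order in the 3 groups. Plvap was highest, followed by Pecam1, Eng, Kdr, Cdh5, Emcn, Flt1, Tek, Tie1 and Vwf, and only Emcn and Cdh5 changed places in the old-OSKM group. Mean levels in young mice ran from 5.92 RPKM for Plvap to 0.71 RPKM for Vwf. Plvap exceeded Pecam1 by 0.50 ± 0.12 on the log2 scale (SD of the difference within a mouse, n = 13) and did so in 13 of 13 mice. Pecam1 and Eng did not differ beyond their spread (0.03 ± 0.14, higher in 7 of 13 mice). Eng exceeded Kdr by 0.68 ± 0.15 in 13 of 13 mice. Kdr, Cdh5, Emcn and Flt1 lay close together, with neighbouring differences of 0.22 ± 0.23, 0.02 ± 0.29 and 0.11 ± 0.20. Flt1 exceeded Tek by 0.65 ± 0.19, Tek and Tie1 did not differ beyond their spread (0.09 ± 0.22), and Vwf lay 0.57 ± 0.29 below Tie1 in 13 of 13 mice. Vwf, the lowest of the set, still ranked above 58.5% of all genes in the table, and Plvap above 95.4%.

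The main finding concerns single mice rather than groups. No endothelial gene passed the call rule of the study, a fold change over 1.5 with a raw p under 0.01 in limma, in any of the 3 comparisons. In old against young mice 0 of 10 passed, where 0.886% of all 23366 genes did. In old-OSKM against old mice 0 of 10 passed, with 0.753% of all genes, and in old-OSKM against young mice 0 of 10, with 0.625%. At such shares most sets of 10 genes taken at random would also give 0, so these counts say little about the set. The same holds for the counts of 0 in the small gene lists below. The limma intervals of old-OSKM minus old, -0.03 to 0.94 for Kdr and -0.20 to 0.97 for Plvap on the log2 scale, include fold changes over 1.5. At a raw p under 0.05 by limma the counts were 1 of 10 in old against young mice (5.52% of all genes), 0 of 10 in old-OSKM against old mice (8.07%) and 0 of 10 in old-OSKM against young mice (5.07%). None had a Benjamini-Hochberg adjusted p under 0.05 by limma, which 0.0813%, 0.00428% and 0.0428% of all genes had in the same order of comparisons. In whole tissue, fewer endothelial cells and less RNA per endothelial cell cannot be told apart.

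The values of all 10 genes shared one pattern across the 13 mice. Old-OSKM mouse 4 was the highest of all mice in 9 genes and the second highest in Cdh5. Young mouse 4 was the highest in Cdh5 and the second highest in 8 others, with old mouse 4 second only in Vwf. Relative to each gene's median over the 13 mice, old-OSKM mouse 4 lay 0.98 higher in the median of the 10 genes on the log2 scale, with a range of 0.60 to 1.26, and young mouse 4 lay 0.64 higher, with a range of 0.32 to 0.77. The other 11 mice lay between -0.17 and 0.13. Summed over the 10 genes, old-OSKM mouse 4 reached 46.0 RPKM and young mouse 4 reached 35.8 RPKM, and the other mice lay between 19.6 and 24.6 RPKM.

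**Figure D1:**
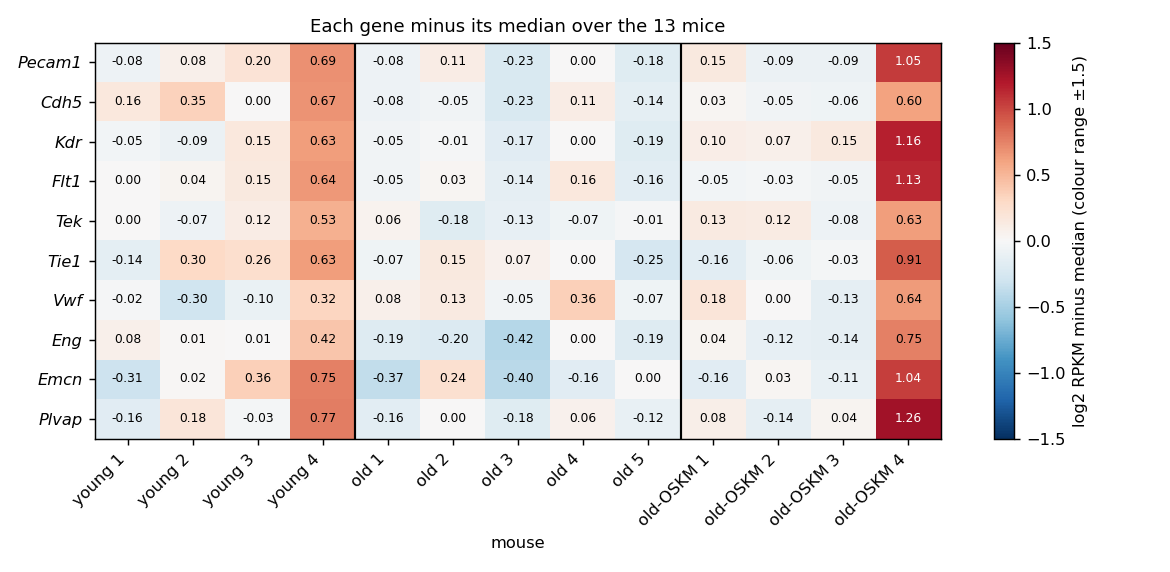
Deviation of the 10 endothelial genes (rows) from their median over the 13 mice, in log2 RPKM, for each mouse (columns, black lines separate young, old and old-OSKM mice). All 10 genes are above their median in young mouse 4 (0.32 to 0.77) and in old-OSKM mouse 4 (0.60 to 1.26), while the columns of the other 11 mice have medians between -0.17 and 0.13.

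Pairs of the 10 genes correlated across the 13 mice with a median Pearson r of 0.87, from 0.54 (Cdh5 with Vwf) to 0.97 (Pecam1 with Flt1). The points share libraries and one normalization, so this is a description. Without old-OSKM mouse 4 and young mouse 4 the median r over the 45 pairs was 0.37 in the remaining 11 mice, and the lowest was -0.37 (Tie1 with Vwf). The shared pattern therefore rested largely on these mice. Vwf was the least like the others, with a median r of 0.70 in all 13 mice and 0.05 in the 11. When the group means were first subtracted, Tek was the least like the others instead, with 0.83 in all 13 mice and 0.05 in the 11.

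Among the receptors for vascular endothelial growth factors, Kdr, which encodes VEGFR2, the main signalling receptor of endothelial growth, (Entrez 16542, mm10 chr5:75932827-75979072, minus strand) had log2 RPKM 1.07, 1.02, 1.27 and 1.74 in young mice 1 to 4, 1.06, 1.10, 0.94, 1.11 and 0.93 in old mice 1 to 5, and 1.22, 1.19, 1.26 and 2.28 in old-OSKM mice 1 to 4. Every old-OSKM mouse lay above every old mouse, from 1.19 against at most 1.11, and old-OSKM mouse 4 lay a full unit above the other 3. Genes higher in old-OSKM than in old mice without overlap made up 1.02% of all genes, and Kdr was the only one of the 10. The group means were 1.28 ± 0.33 in young (SD, n = 4), 1.03 ± 0.09 in old (n = 5) and 1.49 ± 0.53 in old-OSKM mice (n = 4). The shift from old to old-OSKM mice was 0.46 ± 0.22 (SE) on the log2 scale, with a 95% interval of -0.03 to 0.94 and an adjusted p of 0.551 by limma. Without old-OSKM mouse 4 it was 0.19, and the groups still did not overlap. Old minus young was -0.25 ± 0.22 (SE), within the spread between mice, and -0.09 without young mouse 4.

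Flt1, which encodes VEGFR1, a receptor that also sequesters the ligand, (Entrez 14254, mm10 chr5:147561604-147726438, minus strand) had log2 RPKM 0.77, 0.81, 0.92 and 1.42 in young mice 1 to 4, 0.72, 0.80, 0.63, 0.93 and 0.61 in old mice 1 to 5, and 0.72, 0.74, 0.72 and 1.90 in old-OSKM mice 1 to 4. Old-OSKM mice 1 to 3 spanned 0.72 to 0.74 and sat inside the range of the old mice, while mouse 4 alone stood at 1.90, which is 2.25 times the mean of the other 3 on the fold scale. The shift from old to old-OSKM mice was 0.28 ± 0.23 (SE), and -0.01 without mouse 4. Between old and young mice it was -0.24 ± 0.23 (SE), and -0.09 without young mouse 4. Neither was beyond the spread between mice. The log2 ratio of Flt1 to Kdr is free of a shared rise of both genes. It was -0.30 ± 0.06 in young mice, -0.29 ± 0.06 in old mice and -0.47 ± 0.07 in old-OSKM mice. All 4 old-OSKM mice, from -0.54 to -0.38, lay below all young mice, from -0.35 to -0.22, and below all old mice, from -0.34 to -0.18. Old-OSKM differed from old mice by -0.18 (two-sided exact permutation test, p = 0.0159, the smallest that 4 against 5 mice allow) and from young mice by -0.17 (p = 0.0286 in the exact permutation test, the smallest for 4 against 4). This ratio was one of 5 picked with the values known, and over their 15 comparisons both had an adjusted p of 0.159 in the exact permutation test.

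The genes around these receptors, 7 ligands and co-receptors, gave 0 calls in each comparison. Nrp2, a co-receptor, had the smallest raw p in old-OSKM against old mice, with a difference of 0.45 ± 0.20 (SE) and an adjusted p of 0.547 by limma. Vegfc, the lymphatic growth factor, had the smallest in old against young mice, with -0.61 ± 0.28 and an adjusted p of 0.91 by limma. Nrp1 had the smallest in old-OSKM against young mice, with 0.29 ± 0.18 and an adjusted p of 0.706 by limma. Vegfa, the main ligand of Kdr, differed by -0.17 between old and young mice and by 0.20 between old-OSKM and old mice.

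Tek, which encodes Tie2, the receptor of angiopoietins, (Entrez 21687, mm10 chr4:94739086-94874976, plus strand) had log2 RPKM 0.17, 0.10, 0.29 and 0.70 in young mice 1 to 4, 0.23, -0.01, 0.04, 0.10 and 0.16 in old mice 1 to 5, and 0.30, 0.29, 0.09 and 0.80 in old-OSKM mice 1 to 4. The values of the 3 groups overlapped, with young mouse 4 and old-OSKM mouse 4 at the top. Old-OSKM minus old was 0.27 ± 0.15 (SE) and 0.12 without old-OSKM mouse 4. For old minus young it was -0.21 ± 0.15 (SE), and -0.08 without young mouse 4.

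Tie1, the orphan partner of Tie2, (Entrez 21846, mm10 chr4:118471191-118489849, minus strand) had log2 RPKM -0.10, 0.34, 0.30 and 0.67 in young mice 1 to 4, -0.03, 0.19, 0.11, 0.04 and -0.20 in old mice 1 to 5, and -0.12, -0.02, 0.01 and 0.95 in old-OSKM mice 1 to 4. Old-OSKM mice 1 to 3 fell within the range of the old mice, and only mouse 4 lay above it. Old-OSKM minus old was 0.18 ± 0.21 (SE) and turned to -0.07 without mouse 4. The old mice differed from the young by -0.28 ± 0.21 (SE), or by -0.16 without young mouse 4. The log2 ratio of Tie1 to Tek was -0.01 ± 0.21 in young, -0.08 ± 0.23 in old and -0.17 ± 0.26 in old-OSKM mice, and the groups overlapped. Of the angiopoietins, Angpt4 among them, and the Tie2 phosphatase gene Ptprb, 0 of 4 were called in each comparison. Angpt1, the activating ligand of Tie2, had the smallest raw p of the 4 in old against young mice and in old-OSKM against young mice, with differences of 0.21 ± 0.10 (SE, adjusted p = 0.931 by limma) and 0.12 ± 0.10 (adjusted p = 0.706 by limma). In old-OSKM against old mice Ptprb had it, with 0.25 ± 0.26 and an adjusted p of 0.663 by limma. Angpt1 was lowest in old-OSKM mouse 4 (0.81) and young mouse 4 (0.85), the mice in which Tek was highest.

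Among the genes of endothelial junctions, Pecam1, which encodes CD31, (Entrez 18613, mm10 chr11:106654213-106715281, minus strand) had log2 RPKM 1.76, 1.91, 2.04 and 2.52 in young mice 1 to 4, 1.76, 1.95, 1.60, 1.84 and 1.65 in old mice 1 to 5, and 1.98, 1.74, 1.74 and 2.88 in old-OSKM mice 1 to 4. Old-OSKM mice 1 to 3 spanned 1.74 to 1.98, close to the 1.60 to 1.95 of the old mice, and mouse 4 stood at 2.88. The means were 2.06 ± 0.33 in young (SD, n = 4), 1.76 ± 0.14 in old (n = 5) and 2.09 ± 0.54 in old-OSKM mice (n = 4). Old minus young was -0.30 ± 0.23 (SE) and old-OSKM minus old 0.33 ± 0.23 (SE), the former -0.14 without young mouse 4 and the latter 0.06 without old-OSKM mouse 4.

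Cdh5, which encodes VE-cadherin, (Entrez 12562, mm10 chr8:104101613-104144504, plus strand) had log2 RPKM 1.09, 1.28, 0.93 and 1.60 in young mice 1 to 4, 0.85, 0.88, 0.70, 1.04 and 0.79 in old mice 1 to 5, and 0.96, 0.88, 0.87 and 1.53 in old-OSKM mice 1 to 4. It was the gene with the smallest raw p of the 10 in old against young mice, -0.37 ± 0.16 (SE) with a 95% interval of -0.72 to -0.03 and an adjusted p of 0.843 by limma. Old mice spanned 0.70 to 1.04 and young mice 0.93 to 1.60, so the groups overlapped. Without young mouse 4 the difference was -0.25. Old-OSKM minus old was 0.21 ± 0.16 (SE), and 0.05 without old-OSKM mouse 4. The annotation places the antisense gene Gm29682 within Cdh5, without overlap of exons.

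Of 8 junction partners of VE-cadherin, such as the catenins, 0 were called in each comparison. The smallest raw p belonged to F11r in old against young mice (-0.10 ± 0.07, adjusted p = 1 by limma), to Jup in old-OSKM against old mice (-0.14 ± 0.07, adjusted p = 0.547 by limma) and to Ctnna1 in old-OSKM against young mice (0.12 ± 0.08, adjusted p = 0.706 by limma). Many of these partners also serve epithelial junctions.

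Eng, the co-receptor named endoglin, (Entrez 13805, mm10 chr2:32646595-32682669, plus strand) had log2 RPKM 1.99, 1.93, 1.93 and 2.34 in young mice 1 to 4, 1.73, 1.71, 1.49, 1.92 and 1.73 in old mice 1 to 5, and 1.96, 1.80, 1.78 and 2.67 in old-OSKM mice 1 to 4. All young mice, from 1.93 upwards, lay above all old mice, up to 1.92, by the narrowest margin. Genes lower in old mice without overlap made up 1.22% of all genes, and Eng was the only one of the 10. Old minus young was -0.33 ± 0.17 (SE), with a 95% interval of -0.71 to 0.05 and an adjusted p of 0.995 by limma. It was -0.24 without young mouse 4. Old-OSKM minus old was 0.34 ± 0.17 (SE), and 0.13 without old-OSKM mouse 4. An exon of Eng overlaps the opposite-strand gene Fpgs, and the library kit did not mark strand. The differences of Fpgs had the opposite signs, 0.08 ± 0.09 (SE) in old minus young and -0.18 ± 0.09 in old-OSKM minus old.

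In the pathway of endoglin, 0 of 11 genes were called in each comparison. Smad6, an inhibitor of the pathway, had the smallest raw p in old against young mice (0.24 ± 0.09, adjusted p = 0.703 by limma) and in old-OSKM against young mice (0.21 ± 0.09, adjusted p = 0.706 by limma). Tgfbr2, a receptor, had it in old-OSKM against old mice (0.68 ± 0.25, adjusted p = 0.547 by limma).

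Emcn, the sialomucin endomucin of capillaries and veins, (Entrez 59308, mm10 chr3:137341062-137431069, plus strand) had log2 RPKM 0.63, 0.96, 1.30 and 1.69 in young mice 1 to 4, 0.56, 1.18, 0.53, 0.77 and 0.94 in old mice 1 to 5, and 0.77, 0.96, 0.83 and 1.98 in old-OSKM mice 1 to 4. It had the widest spread of the 10 among the young mice, with a mean of 1.14 ± 0.46 (SD, n = 4), and the groups overlapped. The old mice lay at -0.35 ± 0.27 (SE) against young mice, and old-OSKM mice at 0.34 ± 0.27 (SE) against old mice, the former -0.16 without young mouse 4 and the latter 0.06 without old-OSKM mouse 4.

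Plvap, the gene of fenestral diaphragms and the most abundant of the 10, (Entrez 84094, mm10 chr8:71497753-71511806, minus strand) had log2 RPKM 2.17, 2.51, 2.3 and 3.10 in young mice 1 to 4, 2.17, 2.33, 2.15, 2.39 and 2.22 in old mice 1 to 5, and 2.41, 2.19, 2.37 and 3.59 in old-OSKM mice 1 to 4. Old mice were the most alike, from 2.15 to 2.39, and old-OSKM mice 1 to 3 spanned nearly the same, from 2.19 to 2.41. Mouse 4 at 3.59 was 2.41 times the mean of the other 3 old-OSKM mice on the fold scale, the widest gap of the 10 genes. Old minus young was -0.27 ± 0.27 (SE) and old-OSKM minus old 0.39 ± 0.27 (SE), the former -0.07 without young mouse 4 and the latter 0.07 without old-OSKM mouse 4. Gtpbp3 lies on the opposite strand across Plvap without overlap of exons.

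Vwf, the haemostatic protein, (Entrez 22371, mm10 chr6:125552948-125686679, plus strand) had log2 RPKM -0.51, -0.79, -0.59 and -0.16 in young mice 1 to 4, -0.41, -0.35, -0.53, -0.12 and -0.55 in old mice 1 to 5, and -0.30, -0.48, -0.62 and 0.16 in old-OSKM mice 1 to 4. It was the one gene of the 10 with a higher mean in old than in young mice, by 0.12 ± 0.17 (SE), though the groups overlapped, and by 0.23 without young mouse 4. Old-OSKM minus old was 0.08 ± 0.17 (SE), and -0.08 without old-OSKM mouse 4. Set against the mean of the other 9 genes in the same mouse, Vwf lay at -1.83 ± 0.19 in young mice, -1.42 ± 0.11 in old mice and -1.65 ± 0.20 in old-OSKM mice. The log2 ratio of Vwf to Pecam1 was -2.57 ± 0.21 in young and -2.15 ± 0.13 in old mice, 0.42 apart with overlapping groups (p = 0.0317 by the same exact permutation test and 0.159 when adjusted over the 15 ratio comparisons). Between old-OSKM and old mice it differed by -0.25 (exact permutation p = 0.0476, adjusted p = 0.179), and by -0.14 without old-OSKM mouse 4. This ratio, too, was one of the 5 picked with the values known, and the adjustment does not cover that choice. Of 6 haemostasis partners 0 were called in each comparison. Thbd, the anticoagulant thrombomodulin, had the smallest raw p in old-OSKM against old mice (0.75 ± 0.29, adjusted p = 0.547 by limma). Adamts13, the protease that cleaves von Willebrand factor, had it in old against young mice (0.31 ± 0.23, adjusted p = 1 by limma), and F8 in old-OSKM against young mice (0.25 ± 0.13, adjusted p = 0.706 by limma).

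**Figure D2:**
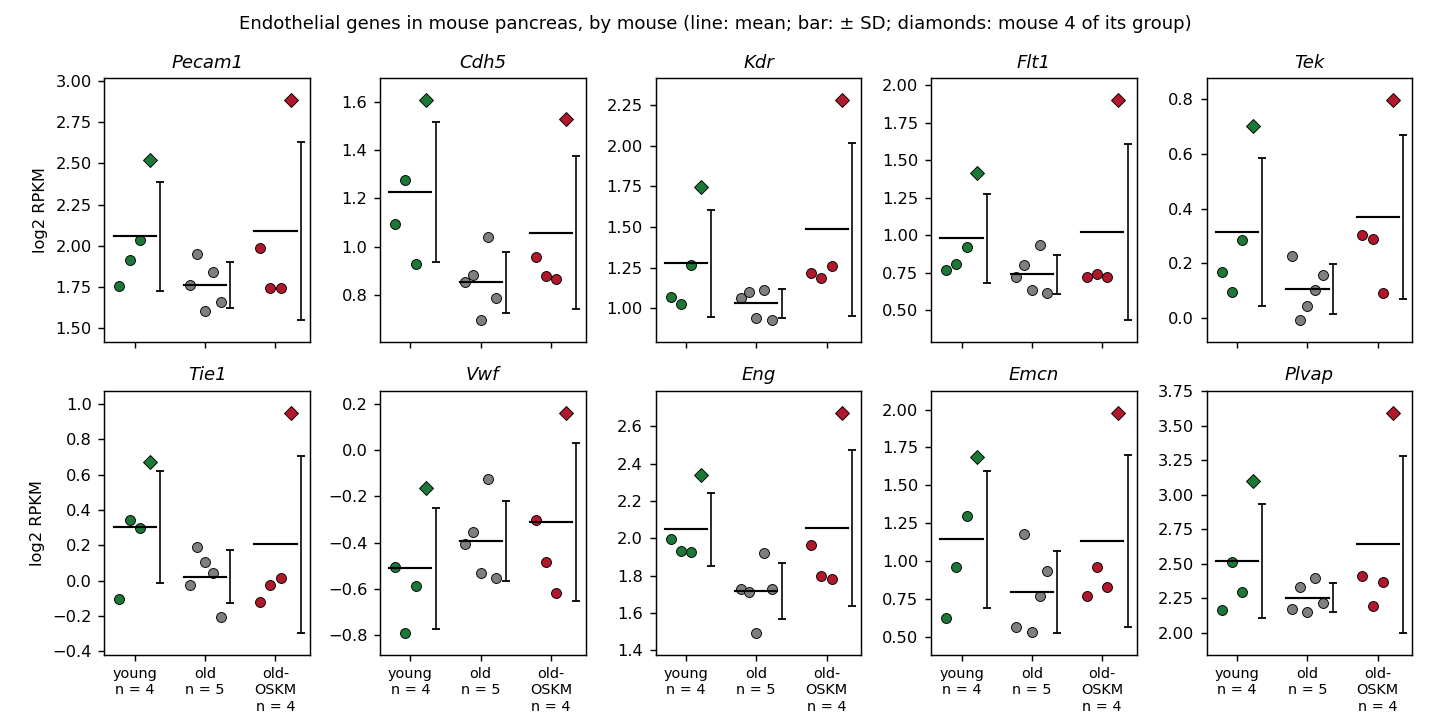
Log2 RPKM of each endothelial gene in each mouse (points), with the group mean (line) and ± SD (bar), for young (n = 4), old (n = 5) and old-OSKM mice (n = 4). Each panel has its own vertical axis. The diamonds, young mouse 4 and old-OSKM mouse 4, sit at or near the top of every panel, and of the values of the other 3 old-OSKM mice 21 of 30 lie within the range of the old mice. Above it lie 8, namely all 3 for Kdr, 2 of 3 for Tek and 1 each for Pecam1, Eng and Plvap. Below it lies 1, for Vwf.

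As a set, 9 of 10 genes had a lower mean in old than in young mice, with a median difference of -0.27 (range -0.37 to 0.12), where the median over all genes was 0.00. Without young mouse 4 the median was -0.12, with 9 of 10 still lower. In old-OSKM against old mice 10 of 10 had a higher mean, with a median of 0.30 (range 0.08 to 0.46) and a median over all genes of -0.04. Without old-OSKM mouse 4 the median was 0.06, with 7 higher and 3 lower. In old-OSKM against young mice 7 of 10 were higher with a median of 0.04, and without old-OSKM mouse 4 the median was -0.22 with 1 of 10 higher. That comparison holds both mice with high values. Without young mouse 4 alone its median was 0.19 with 9 of 10 higher. Without both mice, a choice made after seeing the data, it was -0.09 with 3 of 10 higher. The first 2 comparisons share the old mice, so a low value in those mice moves both. Within the run of identifiers 609 to 621 (2 young, 4 old and 4 old-OSKM mice) the medians were -0.04, 0.29 and 0.25.

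**Figure D3:**
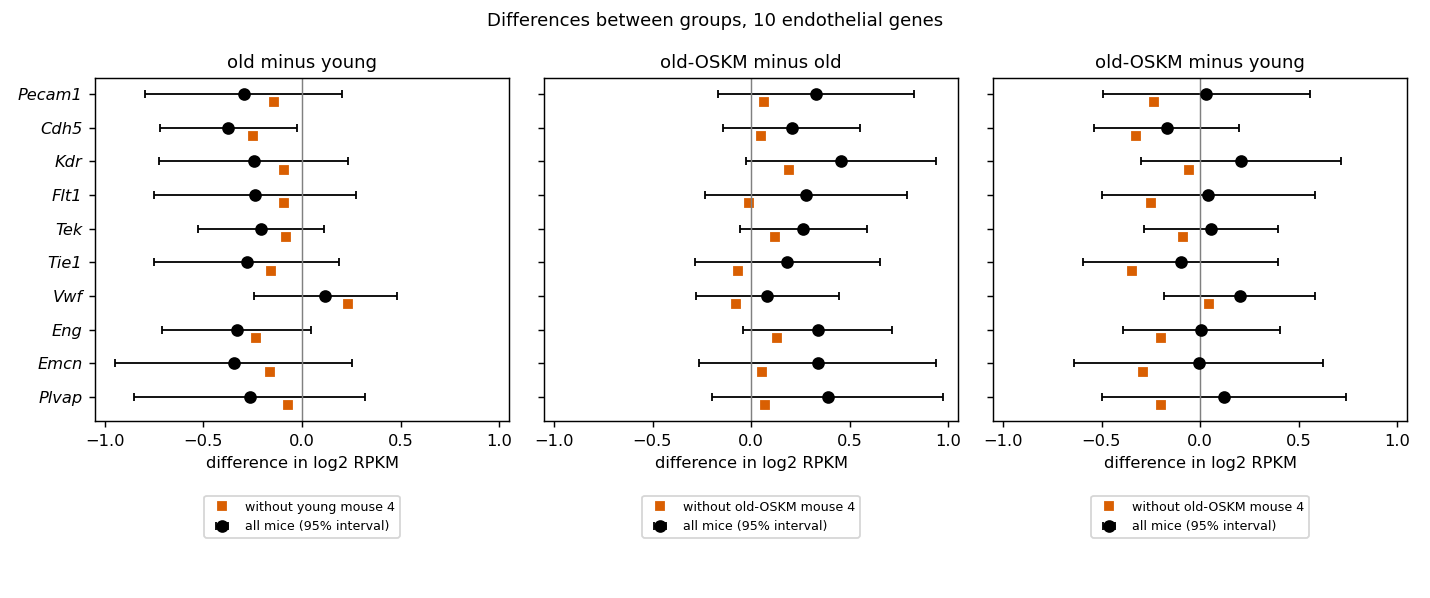
Difference in log2 RPKM between groups for the 10 endothelial genes, with all mice (black points, 95% interval from limma) and without the mouse named in each panel (orange squares). Only the interval of Cdh5 in old minus young leaves out 0. The median of old-OSKM minus old falls from 0.30 to 0.06 without old-OSKM mouse 4. In the panel of old-OSKM minus young, the orange squares still include young mouse 4.

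The 12 further lists held 89 genes of endothelium, its ligands, signalling pathways and partners, not all of them particular to endothelial cells. Under the call rule 2 of the 89 fell in old against young mice, where 102 of all 23366 genes fell. In old-OSKM against old mice 1 of the 89 rose, where 136 of all genes rose. In old-OSKM against young mice 0 were called, with 0.625% of all genes. In old against young mice 63 of the 89 had a lower mean, with a median of -0.17, and in old-OSKM against old mice 69 had a higher mean, with a median of 0.22. Without young mouse 4 the former became 53 of 89 with a median of -0.04, and without old-OSKM mouse 4 the latter became 54 of 89 with a median of 0.06. In that setting the median of old-OSKM minus old went from 0.23 to 0.07 in the list of vascular endothelial growth factors and co-receptors, from 0.08 to -0.01 in the endoglin pathway and from 0.12 to -0.05 in the arterial genes. Of 18 other pan-endothelial genes, 17 had a lower mean in old mice (median -0.35) and 18 a higher one in old-OSKM than in old mice (median 0.35). Without young mouse 4 the former became 16 of 18 with a median of -0.21, and without old-OSKM mouse 4 the latter 15 of 18 with a median of 0.09. Ecscr, a surface protein of endothelial cells, was the one gene of this list called in old against young mice. It was lower in old mice by 0.68 on the log2 scale (SE 0.20, adjusted p = 0.548 by limma). The call was lost without young mouse 4 (-0.54), young mouse 3 (-0.64), old mouse 1 (-0.59) or old mouse 3 (-0.67). It was also lost with a pseudocount of 1 (-0.26) and with the run of identifiers as a covariate (-0.57). Cd93 had the smallest raw p of the list in old-OSKM against old mice (0.44 ± 0.18, adjusted p = 0.547 by limma) and Clec14a in old-OSKM against young mice (-0.24 ± 0.24, adjusted p = 0.717 by limma).

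The called gene in both of the first comparisons was Aplnr, the receptor of the peptide apelin, placed among 6 sprouting genes. It had log2 RPKM -0.40, -0.01, -0.44 and 0.37 in young mice 1 to 4, -0.77, -1.0, -1.38, -1.02 and -1.45 in old mice 1 to 5, and -0.51, -0.81, -0.24 and -0.49 in old-OSKM mice 1 to 4. All young mice lay above all old mice, whereas one old-OSKM mouse, at -0.81, fell within the range of the old ones. Old minus young was -1.01 ± 0.19 (SE, adjusted p = 0.12 by limma). Old-OSKM minus old was 0.61 ± 0.19 (adjusted p = 0.547 by limma), and 0.61 without old-OSKM mouse 4, when the call was lost. Both comparisons use the same old mice. Unlike 9 of the 10 genes, Aplnr was not highest in old-OSKM mouse 4. Its call in old-OSKM against old mice was also lost without old-OSKM mice 1 or 3, without young mouse 2, and without old mice 2, 3, 4 or 5, with differences from 0.52 to 0.71 over all mice left out in turn, and it was kept in old against young mice without any one mouse. With a pseudocount of 1 both calls were lost, the differences being -0.40 and 0.22, and with a pseudocount of 0.1 (0.52) or the run of identifiers as a covariate (0.60) only that of old-OSKM against old mice was. Against young mice, old-OSKM mice lay at -0.39 ± 0.20 (adjusted p = 0.706 by limma).

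Apln, the ligand, had the next smallest raw p of the sprouting genes in old against young mice, with -0.52 ± 0.16 (adjusted p = 0.585 by limma), a fold change too small for the call. Its values were -0.55, -0.24, -1.0 and -0.78 in young mice and between -1.52 and -0.79 in old mice.

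**Figure D4:**
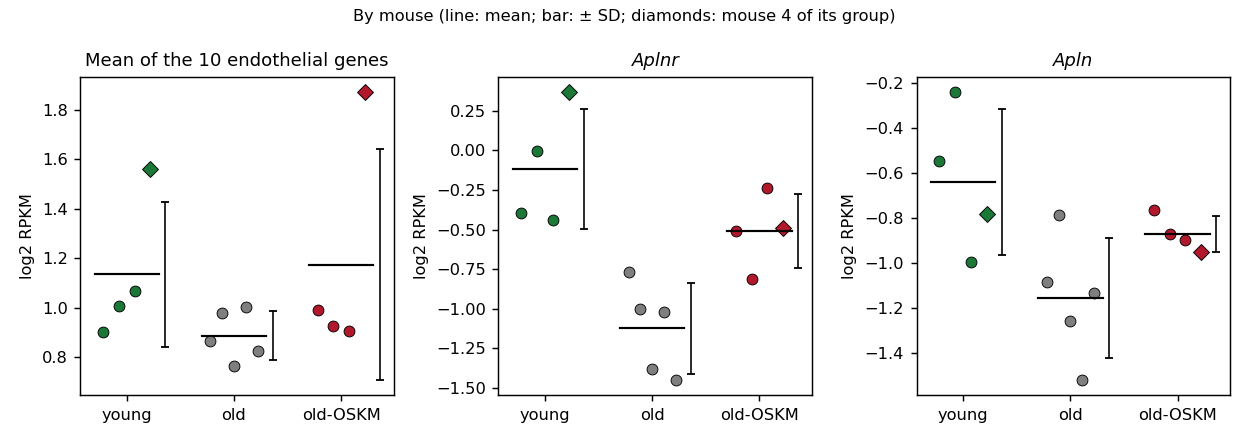
Mean log2 RPKM of the 10 endothelial genes, and log2 RPKM of Aplnr and Apln, in each mouse (points) with the group mean (line) and ± SD (bar). Old-OSKM mouse 4 (red diamond) is the top point of the left panel, but lies at -0.49 among the other old-OSKM mice for Aplnr.

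The remaining lists gave no call. Among 11 endothelial transcription factors, Sox7 had the smallest raw p in old-OSKM against old mice (-0.37 ± 0.12, adjusted p = 0.547 by limma) and in old-OSKM against young mice (-0.25 ± 0.12, adjusted p = 0.706 by limma), and Sox18 in old against young mice (-0.46 ± 0.20, adjusted p = 0.845 by limma). The ETS factors Erg and Fli1 differed by -0.30 and 0.01 between old and young mice. Efnb2 and Sema3g had the smallest raw p of 7 arterial genes in old against young and in old-OSKM against old mice (-0.23 ± 0.19 and 0.26 ± 0.21), and Gja5 in old-OSKM against young mice (-0.71 ± 0.51). Nr2f2 had it among 3 venous genes in old against young mice (0.03 ± 0.10) and Ackr1 in the other comparisons (-0.45 ± 0.32 and -0.40 ± 0.33). Of 4 lymphatic genes, Flt4 had it in old against young mice (-0.23 ± 0.15) and Prox1 in the others (0.40 ± 0.15 and 0.28 ± 0.16). Of 4 leukocyte adhesion genes, Vcam1 had it in old against young mice (0.41 ± 0.34) and Icam1 in the others (0.51 ± 0.27 and 0.78 ± 0.29). Of these 12 differences Prox1 in old-OSKM against old mice had an adjusted p of 0.547 by limma, and the others had 0.603 or above.

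Other cell types moved in the same mice. In old-OSKM mouse 4 the median deviation was 1.12 for 6 fibroblast genes, 0.77 for 9 mural cell genes, 0.95 for 8 macrophage genes, 1.54 for 5 adipocyte genes and 1.47 for 6 islet genes, next to 0.98 for the 10 endothelial genes. For 5 duct genes it was 0.14, though their sum of 18.8 RPKM was the lowest of all mice and 3 of them were highest there. For 8 acinar genes it was 0.00, but 5 of these ranked in the top 12 in every mouse. At such ranks quantile normalization leaves values little room to differ, so the acinar value is no contrast to the other lists. In young mouse 4 the median deviation was 1.04 for the fibroblast genes, 0.40 for the mural genes, 0.54 for the macrophage genes, 0.30 for the adipocyte genes and 0.17 for the islet genes, next to 0.64 for the endothelial genes. Old-OSKM mouse 1 had high T cell (2.31), B and plasma cell (1.94), macrophage (1.53) and adipocyte (2.84) markers and low islet markers (-1.22), with endothelial genes at 0.06. Its fibroblast genes lay at 0.72, leukocyte adhesion genes at 1.00, lymphatic genes at 0.52 and mural genes at 0.17. Macrophage and adipocyte markers were thus above their medians in both mice with high endothelial genes, and highest in old-OSKM mouse 1, where the endothelial genes were not high.

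**Figure D5:**
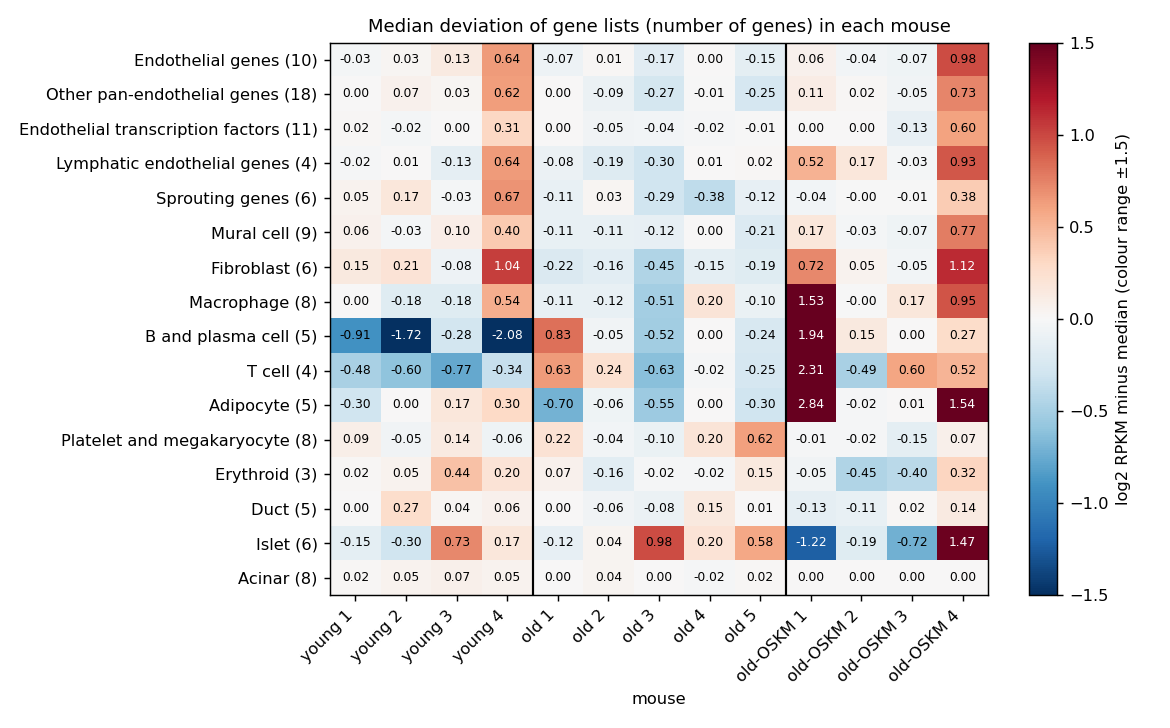
Median deviation, in log2 RPKM, of 16 gene lists (rows, number of genes in brackets) from each gene's median over the 13 mice, for each mouse (columns). Colours stop at ±1.5. Old-OSKM mouse 4 is high in the endothelial (0.98), mural (0.77), fibroblast (1.12) and islet (1.47) lists, and old-OSKM mouse 1 in the T cell (2.31) and adipocyte (2.84) lists.

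Summed over the list, fibroblast genes spanned 25.5 to 51.9 RPKM in young, 19.1 to 24.7 in old and 25 to 70.4 in old-OSKM mice. Mural genes spanned 9.5 to 14.6, 8.36 to 10.1 and 9.08 to 19.7 RPKM in that order of groups, and islet genes 150 to 293, 169 to 388 and 77.7 to 503 RPKM. Platelet and megakaryocyte genes, of cells that also express Vwf and Pecam1, summed to 2.03 to 3.76 RPKM. The highest sum was that of old-OSKM mouse 4, ahead of 3.14 RPKM in young mouse 4, and 2 of the 8 genes were highest there, while their median deviation in that mouse was 0.07. Erythroid genes summed to 20.1 to 43.3 RPKM, and genes of lymph node endothelium to at most 0.77 RPKM. Of the acinar markers, the 5 enzyme genes Cpa1, Cpb1, Cel, Pnlip and Ctrb1 ranked among the top 12 genes in every mouse. Quantile normalization sets values by rank, so Ctrb1, which ranked 1 in each, has the same value in every mouse. The transcription factor genes Ptf1a, Bhlha15 and Rbpjl lay lower, with mean log2 RPKM of 2.71, 3.67 and 3.09. Among these markers, the fibroblast collagens Col1a1 (-0.93) and Col3a1 (-1.04) fell and the plasma cell gene Jchain (2.35) rose in old against young mice under the call rule. In old-OSKM against old mice Col1a1 (0.88), Col1a2 (0.89), the macrophage gene C1qc (1.02) and the adipocyte gene Plin1 (1.53) rose, and in old-OSKM against young mice the B and plasma cell genes Jchain (3.04), Cd79b (1.91) and Ms4a1 (1.77) did. Their adjusted p by limma were 0.469 or above. Without young mouse 4 all 3 calls in old against young mice were lost, with Col1a1 at -0.71, Col3a1 at -0.77 and Jchain at 2.18, and without old-OSKM mouse 4 or mouse 1 all 4 in old-OSKM against old mice were lost. Other mice left out lost calls too. Over the 13 cases Jchain lost its call in old against young mice in 5, Col3a1 in 4 and Col1a1 in 1. In old-OSKM against old mice C1qc and Col1a2 lost it in 9, Plin1 in 6 and Col1a1 in 5. In old-OSKM against young mice Jchain kept its call with each mouse left out in turn, while Cd79b lost it in 3 of 13 cases and Ms4a1 in 7. The part of these cell types in the endothelial values was not tested.

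Over the 13 mice, the genes outside the set whose levels were most like the mean of the 10 genes, among 8385 genes with a mean log2 RPKM above 0, were Crispld2 (Pearson r = 0.99), Rgs5 (0.98), Epas1 (0.98), Atp1b1 (0.98) and Gsn (0.98). Rgs5 is a marker of pericytes, and Epas1 encodes a hypoxia-inducible factor found in endothelium. The least alike were Tmem135 (-0.98), Sorl1 (-0.97), Pls1 (-0.97), Gatad1 (-0.96) and Cd164 (-0.96). Without old-OSKM mouse 4 and young mouse 4, r with the mean of the 10 genes was 0.87 for Epas1, 0.84 for Rgs5, 0.82 for Crispld2, 0.80 for Gsn and 0.79 for Atp1b1 in 11 mice. For the least alike it was -0.86 for Gatad1, -0.85 for Sorl1, -0.75 for Pls1, -0.71 for Tmem135 and -0.49 for Cd164, which then ranked 7537 of the 8385 genes, counted from the most alike. These are descriptions over libraries that share one normalization.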

How the data were processed

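RNA was sequenced from the pancreas of 4 young, 5 old and 4 old-OSKM mice, grouped by the labels. The deposited values are log2 RPKM (read density scaled to length and library size) per Entrez gene, which the authors made with STAR 2.3.0e on mm10, Casper isoform estimates summed per gene, a log2 transform and quantile normalization. The authors' correction by total reads is not in these values, and no read total was given per library. RPKM printed here is 2 raised to the deposited value.

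All 23366 genes were fitted with limma 3.58.1 in R 4.3.3, with 3 groups and no covariate, pseudocount or filter. The method was tested on simulated data with noise drawn independently for each gene. There 192 of 200 genes changed by 1 on the log2 scale were called, and 0.393% of unchanged genes. Such data hold no mouse that is high in many genes at once, so that situation was not covered. A gene was called when its fold change passed 1.5 with a raw p under 0.01. For ratios of 2 genes an exact permutation test, two-sided, was used. The genes and lists were chosen with earlier results of these data known. Text names the 10 genes, called genes of each list or otherwise the smallest raw p, and the 5 genes most and least like the mean. Promoters came from RefSeq GRCm38.p6 and gene overlaps from GENCODE. Identifiers with a symbol numbered 23273. Nothing in the labels pairs mice across groups. Separate mice were the replicates.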

Additional observations from a re-analysis of the deposited data

Results flagged for a closer look

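Within a group, the gap of the extreme mouse to its nearest neighbour was divided by the range of the group, and it passed Dixon's 95% critical value in 7 of 30 combinations of gene and group. Chance passes about 1 in 20 such groups, and the 10 genes are not independent of each other. Old-OSKM mouse 4 was far above the other 3 old-OSKM mice in 6 genes. Its gap over range was 0.983 for Flt1, 0.93 for Kdr, 0.873 for Tie1, 0.867 for Cdh5, 0.842 for Emcn and 0.841 for Plvap. Young mouse 4 was far above the other 3 young mice in Eng, with 0.837.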

How the results depend on the processing

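Under each alternative run, 0 of 10 endothelial genes passed the call rule in each comparison. With all mice and no other change 0 did at an adjusted p under 0.05 by limma, and 1 of 10 had a raw p under 0.05, Cdh5 in old against young mice. The medians of old minus young and of old-OSKM minus old kept their signs. Each mouse left out in turn gave -0.22 to 0.19 for the median of old-OSKM minus young. In that comparison the ranges were -0.23 to 0.19 for Pecam1, -0.055 to 0.37 for Kdr, -0.25 to 0.19 for Flt1, -0.086 to 0.19 for Tek, -0.35 to 0.025 for Tie1, -0.20 to 0.10 for Eng, -0.29 to 0.17 for Emcn and -0.20 to 0.31 for Plvap. In old-OSKM minus old they were -0.013 to 0.38 for Flt1, -0.065 to 0.29 for Tie1 and -0.075 to 0.18 for Vwf. The low ends come from leaving out old-OSKM mouse 4. Leaving out old-OSKM mouse 4 and young mouse 4 together was chosen after seeing the data. Young mouse 4 does not enter old-OSKM minus old, so those differences were the same as without old-OSKM mouse 4 alone. In old-OSKM minus young, leaving out both gave a median of -0.091, with -0.079 for Pecam1, -0.10 for Flt1, -0.10 for Eng and -0.0022 for Plvap. For Emcn, old-OSKM minus young was 0.0001 with a pseudocount of 1 and 0.23 with the run of identifiers as a covariate, against -0.01. Counts of all genes called (207, 176 and 146 in the order old against young, old-OSKM against old, old-OSKM against young) fell to 16, 2 and 8 with a pseudocount of 1, to 116, 77 and 76 with 0.1, to 44, 35 and 19 among genes with a mean log2 RPKM above 0, where Vwf was not tested, and to 136, 104 and 81 above -2. Without old-OSKM mice 1, 2 or 3 the second was 94, 338 and 284, and without old-OSKM mouse 2 the third was 253. The cause was not tested. No paired analysis was possible because the labels give no replicate numbers shared across groups. Depth limits per gene cannot be stated, since no counts or library totals were given.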
